A study of Homo sapiens with 15 samples.

Results

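The genes described here build cholesterol and fatty acids or control that synthesis. They were taken from a list of 32 genes, of which 30 were measured, among 18377 genes on the arrays. The list held 9 genes of the mevalonate steps, 11 of the steps from squalene to cholesterol, 5 regulators and carriers of sterols and 7 genes of fatty acid synthesis, desaturation and elongation. HSD17B7 was carried by a feature that also named its pseudogene, no feature named FDFT1 alone, and neither was analysed here, so that 18 sterol steps were measured. Each measured gene rested on 1 feature of the array, and features that FDPS shared with other symbols were not used.

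PC3 and DU145 are human prostate cancer cell lines that the labels trace to a bone and a brain metastasis. One group of each line received no mimic, and the other three received a scrambled, a miR-224 or a miR-452 mimic, a synthetic RNA that supplies the mature microRNA, at 20 nM, and total RNA was taken after 48 h. A group is represented by 2 arrays, or by 1 for scrambled DU145 cells, where the authors set another array aside for bad performance. The series title concerns methylation of the GABRE locus that holds both microRNAs, and the comparisons ask which transcripts differ when 1 of the 2 is supplied.

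Cholesterol and the isoprenoids are made from acetyl-CoA through mevalonate, farnesyl diphosphate and squalene, and fatty acids are made from the same acetyl-CoA after citrate is cleaved in the cytosol. SREBF2 and SREBF1 encode membrane-bound transcription factors that raise the sterol and the fatty acid genes respectively. SCAP escorts them to the Golgi for cleavage when sterols are low, and INSIG1 holds the complex in the endoplasmic reticulum when sterols are high. Many carcinomas, prostate cancer among them, make much of their own lipid by these routes.

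The mature strands of the supplied microRNAs are shown because the transfected groups differ in the mimic they received. The scrambled mimic differs from both as well, and its sequence is not shown. Capitals mark the seed, bases 2 to 8 from the 5' end, and the sequences are those of RefSeq on build GRCh38.p14, minus strand. The labels do not say which arm each mimic carried, so both arms are given. No seed is shared among the 4.
hsa-miR-224-5p, chrX:151958628-151958652: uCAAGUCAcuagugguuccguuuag
hsa-miR-224-3p, chrX:151958584-151958606: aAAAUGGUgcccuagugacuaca
hsa-miR-452-5p, chrX:151959678-151959699: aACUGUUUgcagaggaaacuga
hsa-miR-452-3p, chrX:151959634-151959655: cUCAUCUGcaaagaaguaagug

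Array medians lay between 6.945 and 7.047 on the log2 scale in PC3 and between 6.505 and 6.672 in DU145, and replicates correlated with r between 0.9916 and 0.9978 across features. The arrays of a line did not share 1 distribution: the interquartile range was 2.678 and 2.751 on the untransfected PC3 arrays and 2.426 to 2.597 on the transfected ones, and 2.407 and 2.427 against 2.027 to 2.201 in DU145. The epithelial keratins KRT8 and KRT18 lay at percentile 96 or above on every array. The epithelial gene EPCAM lay lower, between percentiles 37.1 and 80.4 in PC3 and 57.5 and 88.3 in DU145. CDH1, also epithelial, lay between 33.9 and 46.5 in PC3 and 81.5 and 86.3 in DU145. The luminal prostate genes KLK3 and KLK2 lay between percentiles 17.6 and 38.4. Of the leukocyte genes PTPRC lay at or below percentile 7.58, CD3E between 10.6 and 22.3 and CD14 between 23.6 and 39.2. Of the fibroblast genes DCN and LUM lay at or below percentile 9.26, COL1A2 between 34.6 and 48.3 and COL1A1 between 51.2 and 73.9, and the endothelial genes PECAM1, CDH5 and VWF lay between 3 and 28.

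The levels of epithelial genes were not the same in all groups. EPCAM in PC3 read 8.18 and 7.87 untransfected, 7.63 and 7.33 scrambled, 6.85 and 7.11 with miR-224 and 8.98 and 9.01 with miR-452, and in DU145 it read 9.02 and 9.07, then 8.71, then 7.74 and 7.27, and 8.54 and 9.01. In DU145 KRT8 read 11.68 and 11.71 with miR-224 against 12.17 scrambled and KRT18 10.83 and 10.96 against 11.36, while CDH1 read 8.80 and 8.76 against 8.44. In PC3 the miR-224 and scrambled arrays overlapped for KRT8 and KRT18, while the miR-452 arrays were the highest 2 of 8, at 11.42 and 11.56 for KRT8 and 11.00 and 11.09 for KRT18. CDH1 in PC3 read 6.87 and 6.85 with miR-224, within the scrambled range of 6.73 to 7.05. The part of these genes in the results was not tested.

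Differences are given as log2 changes ± the standard error from limma, and passing means an adjusted p (Benjamini and Hochberg, 18377 genes) under 0.05. Nothing in the labels tells whether replicate arrays came from separate cultures, so the p-values speak only of the spread among these arrays. Arrays were also left out singly, and a call lost without an array, or without either of a pair, is one that did not pass when that array alone was left out. In RNA from whole cultures, a shift in the mix of cells and a shift in RNA per cell cannot be told apart. The replicate arrays of a group differed by a median of 0.06 to 0.15 over the 30 genes, and most for CYP51A1 on the scrambled PC3 arrays, by 0.59. The 12 comparisons within a line share arrays, and how often genes outside the 30 passed across them, or in both lines, was not counted. SREBF2 and FDPS passed in 7 comparisons each and HMGCS1 in 6, while MVK, PMVK, MVD, CYP51A1 and SREBF1 passed in 0.

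**Figure D1:**
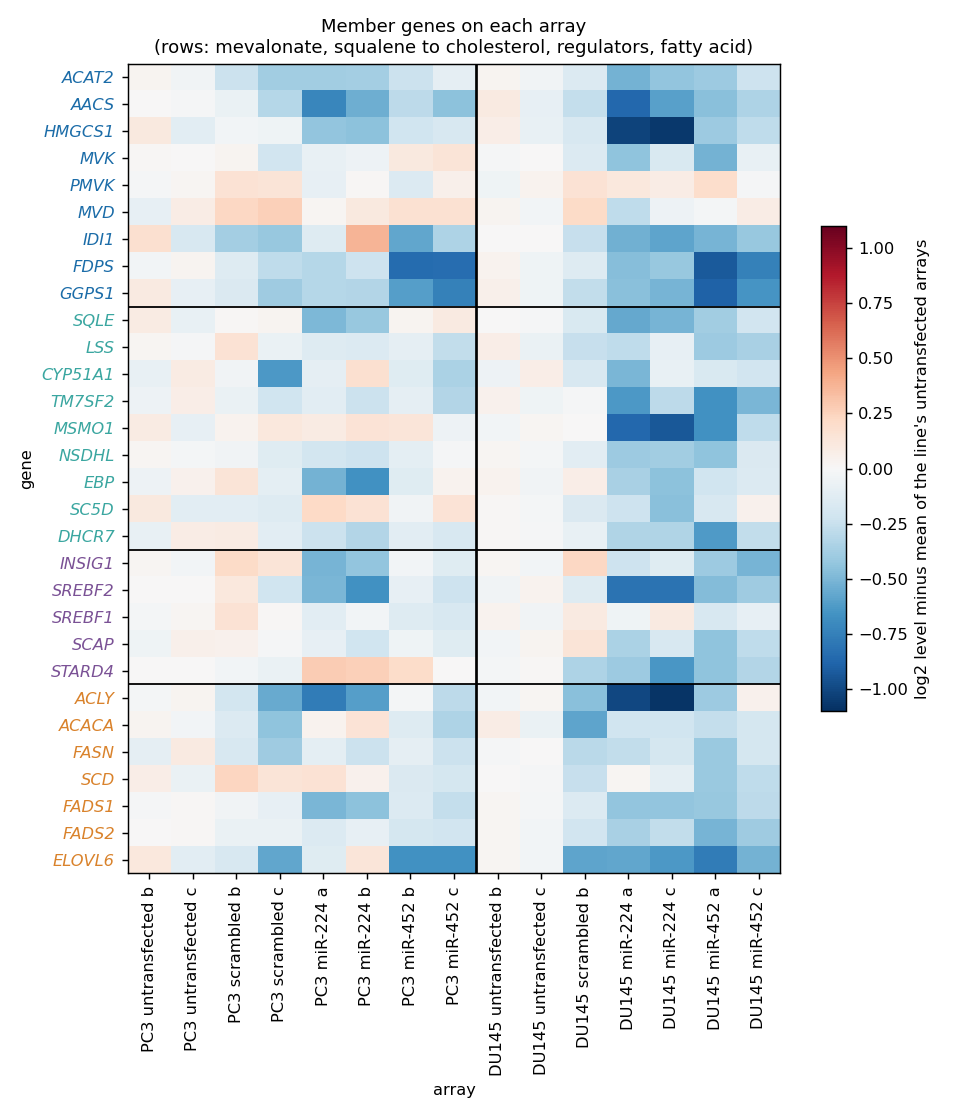
Level of each of the 30 measured genes on each array as the log2 difference from the mean of the line's untransfected arrays (colour), with genes in rows by role and the 8 PC3 and 7 DU145 arrays in columns. The deepest blue lies in the DU145 miR-224 columns at HMGCS1 and ACLY, and FDPS and GGPS1 are deep blue in the miR-452 columns of both lines.

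In PC3 cells 7 of the 30 genes fell with miR-224 against the scrambled mimic and 4 rose, where 4.65% of all genes fell and 12.1% rose. The genes that fell were the regulators INSIG1 and SREBF2, the sterol enzymes AACS, HMGCS1, SQLE and EBP, and the desaturase FADS1. The median change of the 30 genes was -0.11, against -0.01 for all genes and 0.08 for genes at or above percentile 75 of mean level, where 12 of the 30 lay.

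INSIG1, the retention protein of the sterol sensor, read 8.80 and 8.73 on the scrambled PC3 arrays, 8.61 and 8.56 on the untransfected arrays, 8.08 and 8.16 with miR-224 and 8.56 and 8.46 with miR-452. Both miR-224 arrays lay below every other PC3 array, and INSIG1 fell by 0.64 ± 0.079 against scrambled (adjusted p = 0.000418). SREBF2, the sterol-directed transcription factor, read 9.02 and 8.68 on the scrambled arrays, 8.90 and 8.90 on the untransfected arrays, 8.40 and 8.23 with miR-224 and 8.81 and 8.67 with miR-452. Here too the miR-224 arrays were the lowest, with no overlap, and the scrambled arrays were the furthest apart of the 4 groups. The change was -0.53 ± 0.11 (adjusted p = 0.00724, and 0.0787 without miR-224 array b).

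EBP, the isomerase that shifts the sterol double bond late in the pathway, read 9.31 and 9.06 on the scrambled arrays, 9.11 and 9.22 on the untransfected arrays, 8.65 and 8.50 with miR-224 and 9.04 and 9.21 with miR-452. SQLE, the epoxidase that commits squalene to sterols, read 10.26 and 10.28, 10.34 and 10.17, 9.76 and 9.83, and 10.28 and 10.35 on the arrays of the same groups in the same order. In both genes the miR-224 arrays were the lowest 2 of 8. The other 3 groups of EBP overlapped, and those of SQLE lay between 10.17 and 10.35. EBP fell by 0.61 ± 0.10 (adjusted p = 0.00252) and SQLE by 0.47 ± 0.084 (adjusted p = 0.00303).

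HMGCS1, the synthase that makes HMG-CoA, read 8.51 and 8.49 on the scrambled PC3 arrays, 8.65 and 8.42 on the untransfected arrays, 8.11 and 8.09 with miR-224 and 8.32 and 8.36 with miR-452. The 4 control arrays lay above both mimics, and miR-224 lay lowest. HMGCS1 fell by 0.40 ± 0.087 with miR-224 (adjusted p = 0.00936, and 0.0743 without miR-224 array b). AACS, which activates acetoacetate for the same synthase, fell by 0.44 ± 0.10 (adjusted p = 0.0115), and the call was lost without miR-224 array a or scrambled array b, with adjusted p of 0.0739 to 0.0904. FADS1, a desaturase of polyunsaturated fatty acids, read 10.29 and 10.24 on the scrambled arrays and 9.83 and 9.88 with miR-224, with no overlap. It fell by 0.41 ± 0.078 (adjusted p = 0.00432) and was the 1 fatty acid gene of 7 that fell.

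The genes that rose with miR-224 in PC3 were STARD4, a carrier of cholesterol between membranes (0.32 ± 0.085, adjusted p = 0.0231), ACACA, the acetyl-CoA carboxylase that commits carbon to fatty acids (0.39 ± 0.11, adjusted p = 0.0269), the sterol desaturase SC5D (0.32 ± 0.10, adjusted p = 0.0414) and the isomerase IDI1 (0.51 ± 0.16, adjusted p = 0.0456), the gene with the largest p of the 11 and named after its values were seen. STARD4 read 7.38 and 7.34 on the scrambled arrays, 7.41 and 7.41 on the untransfected arrays, 7.69 and 7.67 with miR-224 and 7.61 and 7.41 with miR-452. Its miR-224 arrays were the highest of the 8. ACACA read 8.68 and 8.39 on the scrambled arrays, 8.86 and 8.80 on the untransfected arrays, 8.87 and 8.98 with miR-224 and 8.69 and 8.49 with miR-452. ACACA with miR-224 lay just above the untransfected arrays, and the scrambled arrays were below them. Against untransfected cells the changes were 0.28 ± 0.085 for STARD4 (adjusted p = 0.0667), 0.09 ± 0.11 for ACACA, 0.19 ± 0.10 for SC5D and 0.11 ± 0.16 for IDI1, and none passed.

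The rises of SC5D and IDI1 depended on the normalization. With the arrays quantile normalized within the line, 11 of the 30 genes fell and 2 rose, STARD4 and ACACA, where 8.1% and 10.7% of all genes did. Each rise was lost without some array of the miR-224 or the scrambled group, while the falls of INSIG1, EBP, SQLE and FADS1 passed whichever array was left out, and those of SREBF2, HMGCS1 and AACS did not. The count of 11 genes that passed became 7 without miR-224 array a and 5 without array b.

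In DU145 cells 3 of the 30 genes fell with miR-224 against the scrambled array and 0 rose, where 1.31% and 0.631% of all genes did. They were HMGCS1, MSMO1, the oxidase that removes the methyl groups at the fourth carbon of the sterol, and SREBF2. The median change of the 30 genes was -0.28, with 26 below 0, against -0.01 for all genes and 0.00 for genes at or above percentile 75 of level. For the 18 sterol steps the median was -0.30 and for the 7 fatty acid genes -0.02. The scrambled array itself lay below the untransfected arrays by a mean of 0.10 for the sterol steps and 0.36 for the fatty acid genes. Against untransfected cells the miR-224 medians were -0.42 and -0.31. The 1 scrambled array was taken to vary like the other DU145 groups.

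HMGCS1 read 9.59 and 9.44 on the untransfected DU145 arrays, 9.34 on the scrambled array, 8.50 and 8.46 with miR-224 and 9.12 and 9.24 with miR-452. The miR-224 arrays stood far below the rest, and the change was -0.86 ± 0.11 (adjusted p = 0.00733), a 1.82-fold lower level. That call passed whichever other array was left out, with adjusted p of at most 0.0496. MSMO1 read 9.33 and 9.38, then 9.36, then 8.50 and 8.43, and 8.69 and 9.08 in the same groups. The controls lay close together, miR-224 was lowest and the miR-452 arrays were spread between them.

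MSMO1 changed by -0.90 ± 0.15 with miR-224 in DU145 (adjusted p = 0.0196). SREBF2 read 9.26 and 9.34 on the untransfected arrays, 9.16 on the scrambled array, 8.49 and 8.49 with miR-224 and 8.82 and 8.91 with miR-452, so that the 4 groups did not overlap. It changed by -0.67 ± 0.10 (adjusted p = 0.0153). Without either miR-224 array MSMO1 and SREBF2 no longer passed, with adjusted p of 0.0765 to 0.0983, and the count of 3 became 1. Without either miR-452 array 7 of the 30 genes fell.

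HMGCS1 and SREBF2 thus fell with miR-224 against scrambled in both lines, and the share of all genes that did so was not counted. Of the other 5 genes that fell in PC3, EBP changed by -0.48 ± 0.11 in DU145 (adjusted p = 0.0611), AACS by -0.47 ± 0.14, INSIG1 by -0.42 ± 0.11, SQLE by -0.37 ± 0.11 and FADS1 by -0.28 ± 0.11, and none of these passed. No gene passed in opposite directions in the lines. The difference between the lines in the change passed for 1 of the 30 genes, MSMO1, where 1.15% of all genes passed. MSMO1 read 9.14 and 9.22 on the scrambled PC3 arrays and 9.19 and 9.25 with miR-224, which overlap, and its PC3 change was 0.04 ± 0.093. The change in PC3 exceeded that in DU145 by 0.94 ± 0.18 (adjusted p = 0.0228), and this call was lost without either DU145 miR-224 array, PC3 miR-224 array b or either PC3 scrambled array, with adjusted p of 0.0545 to 0.105. Without PC3 miR-224 array a the count was 2.

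**Figure D2:**
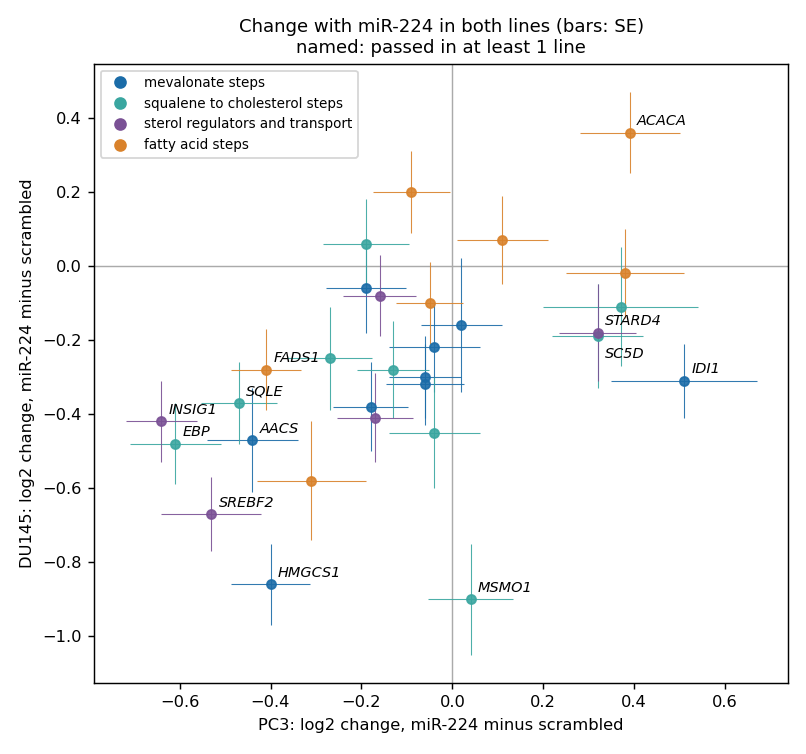
Log2 change with miR-224 against the scrambled mimic in PC3 (x axis) and DU145 (y axis) for the 30 genes, coloured by role, with bars of 1 standard error and names for genes that passed in at least 1 line. HMGCS1 and SREBF2 lie low on both axes, and MSMO1 lies at 0.04 in PC3 and -0.90 in DU145.

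The windows of 250 bases before the start of SREBF2, HMGCS1, MSMO1 and FDPS are shown because these genes carry the results with either mimic. HMGCS1 has several annotated starts, of which the most upstream is shown. Capitals mark CCAAT on either strand (CCAAT or ATTGG) and, in SREBF2 and MSMO1, the match to a sterol response element, from RefSeq on build GRCh38.p14, 5' to 3' on the strand of the gene.
SREBF2, chr22:41832855-41833104 (plus strand): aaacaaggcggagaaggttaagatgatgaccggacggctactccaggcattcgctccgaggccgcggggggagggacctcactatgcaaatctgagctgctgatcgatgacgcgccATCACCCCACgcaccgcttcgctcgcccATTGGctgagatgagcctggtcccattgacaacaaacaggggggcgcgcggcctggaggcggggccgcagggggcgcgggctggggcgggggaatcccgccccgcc
HMGCS1, chr5:43313413-43313662 (minus strand): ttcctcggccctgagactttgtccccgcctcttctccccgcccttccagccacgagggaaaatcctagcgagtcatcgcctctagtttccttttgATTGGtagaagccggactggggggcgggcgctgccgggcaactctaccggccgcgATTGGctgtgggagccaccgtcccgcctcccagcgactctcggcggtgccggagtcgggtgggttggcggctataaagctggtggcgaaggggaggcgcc
MSMO1, chr4:165327419-165327668 (plus strand): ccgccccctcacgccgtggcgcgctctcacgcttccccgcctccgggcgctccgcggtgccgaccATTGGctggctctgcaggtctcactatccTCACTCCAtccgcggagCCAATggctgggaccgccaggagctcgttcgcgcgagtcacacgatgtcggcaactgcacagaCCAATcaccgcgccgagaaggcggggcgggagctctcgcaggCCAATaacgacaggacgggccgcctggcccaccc
FDPS, chr1:155308616-155308865 (plus strand): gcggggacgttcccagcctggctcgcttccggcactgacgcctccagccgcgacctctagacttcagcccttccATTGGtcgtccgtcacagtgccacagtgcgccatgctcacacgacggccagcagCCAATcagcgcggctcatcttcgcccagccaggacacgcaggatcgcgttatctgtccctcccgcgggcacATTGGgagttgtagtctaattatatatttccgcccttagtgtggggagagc

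Windows were found for 28 of the 32 genes, all but ACAT2, FDFT1, SQLE and FASN, with 39 windows in all because some genes have several starts. The element core TCACNCCA, searched on both strands, stood in 3 of the 39 windows, of MVK, MSMO1 and SREBF2, or 7.69%, against 3.2% of 35116 windows of all genes. CCAAT, the site of the factor NF-Y that acts beside SREBPs at many sterol genes, stood in 24 of the 39 windows, or 61.5%, against 32% of all windows. The GC box CCGCCC stood in 87.2% against 42.6%. The matches describe letters in these windows and show no binding.

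With miR-452 against the scrambled mimic, FDPS, the synthase of farnesyl diphosphate from which isoprenoids and squalene both descend, fell in both lines. The scrambled arrays are those set against miR-224. In PC3 3 of the 30 genes fell and 0 rose, where 2.33% of all genes fell and 2.89% rose, and in DU145 2 fell and 0 rose, where 1.52% fell and 0.577% rose.

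FDPS read 8.39 and 8.25 on the scrambled PC3 arrays, 8.50 and 8.56 on the untransfected arrays, 8.22 and 8.30 with miR-224 and 7.68 and 7.69 with miR-452. In DU145 it read 8.56 on the scrambled array, 8.74 and 8.65 untransfected, 8.23 and 8.28 with miR-224 and 7.78 and 7.96 with miR-452. The miR-452 arrays were the lowest of both lines, apart from every other array. FDPS fell by 0.63 ± 0.080 in PC3 (adjusted p = 0.00081) and by 0.69 ± 0.11 in DU145 (adjusted p = 0.0214, and 0.0505 without either untransfected array). The lines differed by 0.05 ± 0.13 in this change, which did not pass.

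GGPS1, which extends farnesyl to geranylgeranyl diphosphate for protein prenylation, read 7.12 and 6.89 on the scrambled PC3 arrays and 6.67 and 6.54 with miR-452. The groups did not overlap, and it fell by 0.40 ± 0.10 (adjusted p = 0.0386). In DU145 it read 6.99 on the scrambled array and 6.37 and 6.61 with miR-452, a change of -0.51 ± 0.12 that did not pass (adjusted p = 0.0708). SCD, the stearoyl-CoA desaturase, read 10.77 and 10.67 on the scrambled PC3 arrays, 10.60 and 10.46 untransfected and 10.37 and 10.34 with miR-452. It fell by 0.37 ± 0.085 against scrambled (adjusted p = 0.029). Against untransfected cells its change with miR-452 was -0.18 ± 0.085, which did not pass (adjusted p = 0.147). The PC3 calls of GGPS1 and SCD were each lost without either miR-452 array or scrambled array b, and that of GGPS1 also without either miR-224 array, with adjusted p of 0.0541 to 0.228. The PC3 count of 3 became 1 when a miR-452 array or scrambled array b was left out.

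INSIG1 fell with miR-452 in DU145 by 0.69 ± 0.11 (adjusted p = 0.0182, and 0.0501 without either untransfected array). It read 9.39 on the scrambled array, 9.18 and 9.13 untransfected, 8.93 and 9.03 with miR-224 and 8.76 and 8.65 with miR-452. The scrambled array was the highest of the 7 and the miR-452 arrays the lowest. In PC3 the change was -0.25 ± 0.079 (adjusted p = 0.0992). Without either DU145 untransfected array the count of 2 became 0, and without miR-452 array c it became 6. The difference between the lines passed for 0 of the 30 genes by limma, with 5 at an unadjusted p under 0.05, where 0.62% of all genes passed.

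**Figure D3:**
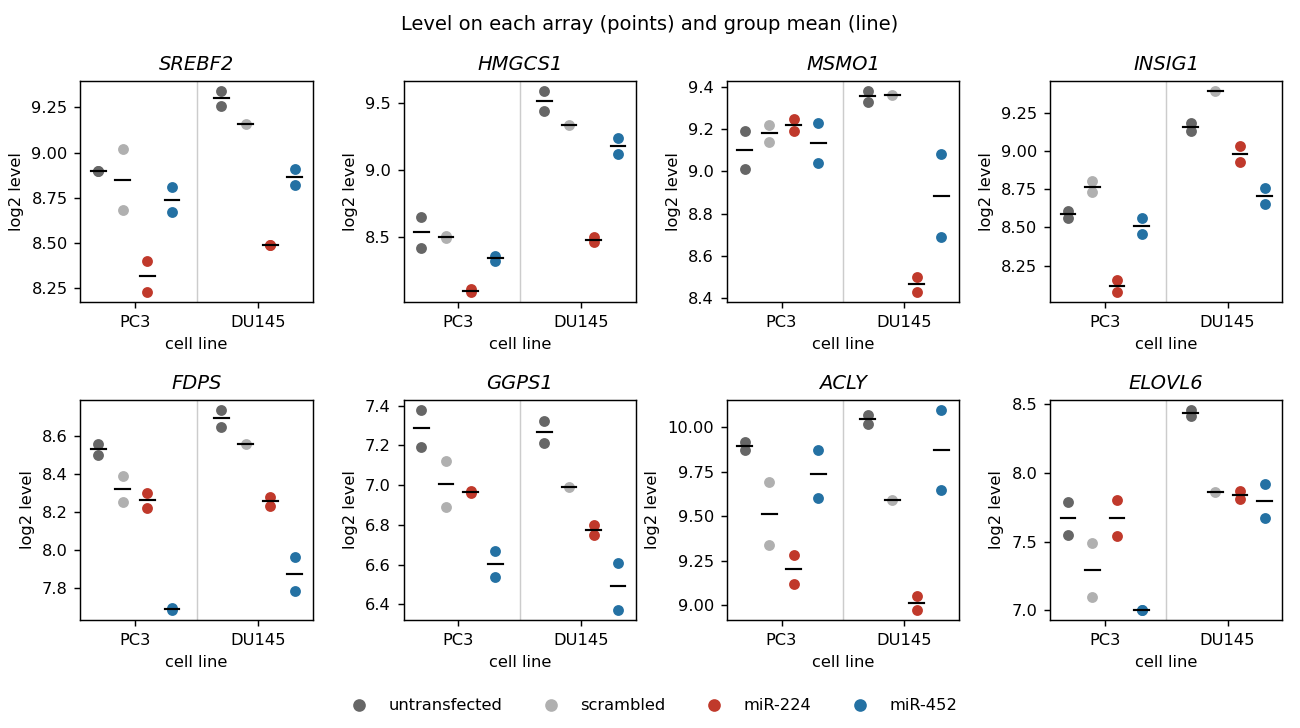
Log2 level of 8 genes on each array (points) and group mean (lines) in untransfected, scrambled, miR-224 and miR-452 cells of PC3 and DU145, each panel on its own axis. SREBF2 and HMGCS1 are lowest with miR-224 in both lines, FDPS and GGPS1 with miR-452, and MSMO1 with miR-224 in DU145, where it read 8.50 and 8.43.

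The mimics were also set directly against each other. In PC3 SQLE, EBP, INSIG1, SREBF2, ACLY and FADS1 were lower with miR-224 than with miR-452, and IDI1, FDPS, GGPS1, SCD and ELOVL6 were higher. These were 6 and 5 of the 30 genes, where 5.99% of all genes were lower and 12.5% higher. With quantile normalized arrays 11 were lower and 4 higher, SCD no longer passing (adjusted p = 0.0588), where 8.56% and 11.2% of all genes were. Leaving out miR-224 array a or b brought the count of 11 to 6, and leaving out miR-452 array b brought it to 7.

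ACLY, the lyase that yields cytosolic acetyl-CoA from citrate, read 9.12 and 9.28 with miR-224 and 9.87 and 9.60 with miR-452 in PC3, beside 9.87 and 9.92 untransfected and 9.69 and 9.34 scrambled. In DU145 it read 9.05 and 8.97 with miR-224 and 9.65 and 10.10 with miR-452, beside 10.02 and 10.07 untransfected and 9.59 scrambled. In both lines the miR-224 arrays were the lowest, and the miR-452 arrays overlapped the range of the controls. The change of ACLY, miR-224 minus miR-452, was -0.53 ± 0.12 in PC3 (adjusted p = 0.0114) and -0.87 ± 0.13 in DU145 (adjusted p = 0.0061, and 0.0521 without miR-224 array c). The PC3 call was lost without miR-224 array a or miR-452 array b, with adjusted p of 0.0743 to 0.0899. Against the scrambled arrays its miR-224 changes of -0.31 ± 0.12 and -0.58 ± 0.16 did not pass.

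ELOVL6, the elongase that makes stearate from palmitate, read 7.54 and 7.80 with miR-224 in PC3, and both miR-452 arrays lay below every other PC3 array. It was higher with miR-224 by 0.67 ± 0.13 (adjusted p = 0.00447), and in DU145 the change was 0.04 ± 0.10. FDPS was higher with miR-224 in both lines, by 0.58 ± 0.080 in PC3 (adjusted p = 0.000536) and 0.39 ± 0.093 in DU145 (adjusted p = 0.041). The PC3 changes were -0.52 ± 0.084 for SQLE, -0.55 ± 0.10 for EBP, -0.39 ± 0.079 for INSIG1, -0.42 ± 0.11 for SREBF2 and -0.27 ± 0.078 for FADS1. Those of the genes that were higher were 0.57 ± 0.16 for IDI1, 0.36 ± 0.10 for GGPS1 and 0.28 ± 0.085 for SCD, the last named after its values were seen since it had the largest p of the 11. FDPS, SQLE, EBP and ELOVL6 passed in PC3 whichever array was left out, and each of the others was lost without at least 1 array of the mimics.

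In DU145 HMGCS1, SREBF2 and ACLY were lower with miR-224 than with miR-452 and FDPS was higher, 3 and 1 of the 30 genes, where 2.38% of all genes were lower and 3.53% higher. With quantile normalized arrays 5 were lower and 2 higher, where 3.83% and 3.97% of all genes were. HMGCS1 differed by -0.70 ± 0.093 (adjusted p = 0.00339) and SREBF2 by -0.37 ± 0.085 (adjusted p = 0.0339). The FDPS and SREBF2 calls were lost without either miR-224 array or either untransfected array, and that of FDPS also without miR-452 array a, with adjusted p of 0.0794 to 0.258, and the count of 4 became 1 or 2. INSIG1 differed by 0.27 ± 0.089 in DU145, which did not pass, against -0.39 in PC3, and the difference between the lines in this comparison was not tested. SREBF2 and ACLY were the genes lower, and FDPS the gene higher, in both lines.

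**Figure D4:**
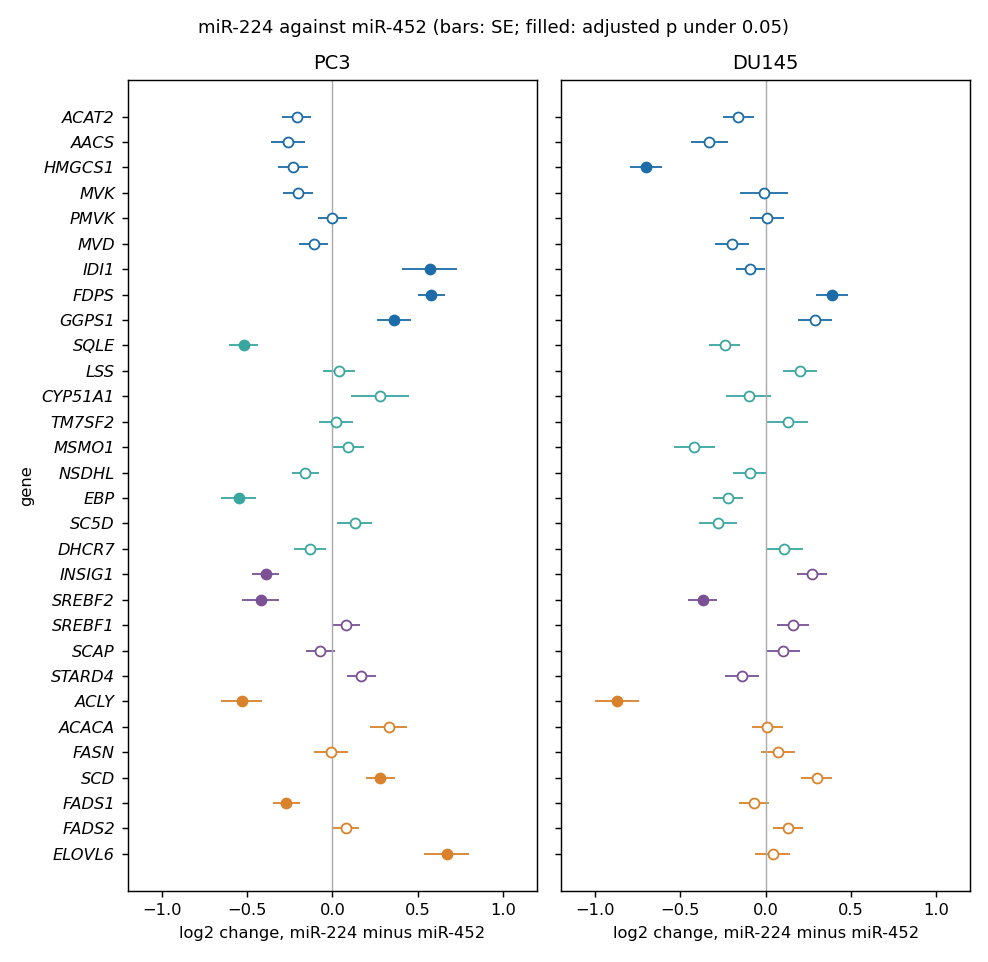
Log2 change of miR-224 minus miR-452 for the 30 genes in PC3 (left) and DU145 (right), in rows by role, with bars of 1 standard error and filled points for adjusted p under 0.05. FDPS lies to the right in both panels, at 0.58 and 0.39, and SREBF2 and ACLY lie to the left in both.

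Few of these genes differed between scrambled and untransfected cells. In PC3 ACAT2, the cytosolic thiolase that starts the mevalonate route, fell by 0.31 ± 0.085 (adjusted p = 0.0353), 1 of 30, where 10.9% of all genes fell and 3.32% rose. Its arrays read 8.40 and 8.33 untransfected and 8.13 and 7.99 scrambled, with no overlap. That call was lost without either miR-224 or either untransfected array or scrambled array c, with adjusted p of 0.053 to 0.241. The count of 1 went to 0 without miR-224 array a or b, scrambled array c or untransfected array b, and became 7 without scrambled array b. With quantile normalized arrays the split turned, with 3 of 30 higher and 0 lower, where 5.01% and 6.33% of all genes were.

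In DU145 ACACA and ELOVL6 fell, each by 0.58, with standard errors of 0.11 and 0.12 (adjusted p = 0.0189 and 0.0253), 2 of 30, where 9.22% of all genes fell and 2.6% rose. ACACA read 8.74 and 8.59 untransfected, 8.08 on the scrambled array, 8.44 and 8.44 with miR-224 and 8.40 and 8.47 with miR-452. ELOVL6 read 8.46 and 8.41, then 7.86, then 7.87 and 7.81, and 7.67 and 7.92 in the same groups. The scrambled array was the lowest of the 7 for ACACA, while for ELOVL6 all 5 transfected arrays lay below the untransfected ones. Both calls were lost without either untransfected array, with adjusted p of 0.0926 to 0.135, and neither passed after quantile normalization, with adjusted p of 0.0575 and 0.0573. The count of 2 went to 0 when an untransfected array was left out and to 5 when a miR-452 array was.

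All 7 fatty acid genes lay lower on the DU145 scrambled array than on the untransfected arrays, with changes of -0.58 to -0.15 and a median of -0.30, and 6 of 7 did so in PC3, with a median of -0.29. The medians of the 18 sterol steps were -0.15 and -0.09. In the same comparison the median over genes at or above percentile 75 of level was -0.17 in DU145 and -0.13 in PC3, and -0.01 and -0.00 after quantile normalization, when the fatty acid medians were -0.24 and -0.15 and those of the sterol steps 0.01 and 0.03. Of the 30 genes, 22 lay in that range in DU145. The part of this shift of highly expressed genes in the result was not tested. The difference between the lines passed for 0 of the 30 genes by limma, with 1 at an unadjusted p under 0.05, where 0.207% of all genes passed.

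Against untransfected cells more of these genes passed in DU145 than against the scrambled array, with either mimic. With miR-224 17 of the 30 genes fell and 0 rose, where 15.5% of all genes fell and 5.44% rose, and with miR-452 20 fell and 0 rose, where 19.9% fell and 8.31% rose. In PC3 9 fell with miR-224, where 6.85% of all genes did, 4 fell with miR-452, where 14.1% did, and 0 rose with either, where 2.84% and 8.12% did. The medians over genes at or above percentile 75 of level were -0.15 and -0.21 in DU145 and -0.04 and -0.12 in PC3. Of the 4595 such genes in DU145, 1148 fell and 110 rose with miR-224, and 1549 fell and 72 rose with miR-452. With quantile normalized arrays 10 and 6 of the 30 genes fell in DU145, where 8.46% and 7.43% of all genes did, and in PC3 10 fell and 1 rose with miR-224, where 6.01% and 4.67% did, and 3 fell and 2 rose with miR-452, where 9.37% and 7.9% did. With them no gene of the 30 rose in DU145, where 5.45% and 4.83% of all genes did. The part of the shift in these counts was not tested.

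The largest falls with miR-224 in DU145 were in HMGCS1 and ACLY, by 1.03 each, with standard errors of 0.093 and 0.13 (adjusted p = 0.000461 and 0.00177). MSMO1 fell by 0.89 ± 0.12, SREBF2 by 0.81 ± 0.085, AACS by 0.73 ± 0.11 and IDI1 by 0.55 ± 0.084. These 6 passed whichever array was left out and after quantile normalization. With the replicate letters fitted as a block, AACS and IDI1 did not pass (adjusted p = 0.121 and 0.125), while HMGCS1, ACLY, MSMO1 and SREBF2 did. ELOVL6 fell by 0.60 ± 0.10, SQLE by 0.53 ± 0.090, STARD4 by 0.52 ± 0.10 and ACAT2 by 0.47 ± 0.092, and each of these calls was lost without at least 1 untransfected array, with adjusted p of 0.0509 to 0.0971. STARD4 also did not pass after quantile normalization (adjusted p = 0.0686). The count of 17 became 6 and 7 without untransfected array b or c, and 11 without either miR-224 array.

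In PC3 the 9 genes were ACLY, AACS, SREBF2, EBP, FADS1, INSIG1, SQLE, HMGCS1 and ACAT2, with changes of -0.69 ± 0.12 for ACLY, -0.63 ± 0.10 for AACS and -0.59 ± 0.11 for SREBF2. EBP changed by -0.59 ± 0.10, FADS1 by -0.48 ± 0.078, INSIG1 by -0.47 ± 0.079, SQLE by -0.46 ± 0.084, HMGCS1 by -0.43 ± 0.087 and ACAT2 by -0.37 ± 0.085. All but INSIG1 also fell in DU145, where 17 of the genes described here did. The share of all genes that fell in both lines was not counted. The falls of AACS, FADS1 and INSIG1 passed whichever array was left out, and each of the other 6 was lost without at least 1 array, with adjusted p of 0.0502 to 0.124. The count of 9 became 4 and 5 without untransfected array b or c and 5 without miR-224 array b.

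The change with miR-224 from untransfected cells differed between the lines for 3 of the 30 genes, where 5.13% of all genes passed. It was 1.01 ± 0.16 higher in PC3 for MSMO1 (adjusted p = 0.00487), 0.79 ± 0.13 higher for STARD4 (adjusted p = 0.00613) and 0.60 ± 0.13 higher for HMGCS1 (adjusted p = 0.0161). STARD4 read 7.94 and 7.97 on the untransfected DU145 arrays, 7.62 scrambled, 7.56 and 7.32 with miR-224 and 7.52 and 7.64 with miR-452. All transfected DU145 arrays lay below the untransfected ones, whereas in PC3 both miR-224 arrays lay above them. The MSMO1 and STARD4 differences passed whichever array was left out. The HMGCS1 difference was lost without DU145 miR-224 array c, DU145 untransfected array b, PC3 miR-224 array b or PC3 untransfected array c, with adjusted p of 0.0709 to 0.0988. The count of 3 became 6 without PC3 untransfected array b and 5 without either DU145 miR-452 array.

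With miR-452, FDPS fell from the untransfected level by 0.85 ± 0.080 in PC3 (adjusted p = 0.000108) and 0.83 ± 0.093 in DU145 (adjusted p = 0.00161). GGPS1 fell by 0.68 ± 0.10 and 0.78 ± 0.10, and both genes passed in both lines whichever array was left out. ELOVL6 fell by 0.67 ± 0.13 in PC3 and 0.64 ± 0.10 in DU145, and AACS by 0.37 ± 0.10 and 0.40 ± 0.11. The ELOVL6 call in PC3 was lost without untransfected array b (adjusted p = 0.0937), and the AACS call in PC3 without that array, untransfected array c or miR-452 array c. The AACS call in DU145 was lost without miR-452 array a or either untransfected array. After quantile normalization AACS did not pass in either line, with adjusted p of 0.0956 in PC3 and 0.188 in DU145.

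Among the other DU145 genes with the smallest p for miR-452 were TM7SF2, a sterol reductase (-0.59 ± 0.12), the regulators INSIG1 (-0.45 ± 0.089) and SREBF2 (-0.44 ± 0.085), IDI1 (-0.47 ± 0.084), FADS2 (-0.45 ± 0.089), DHCR7, the reductase that ends one branch of cholesterol synthesis (-0.44 ± 0.11), and FADS1 (-0.35 ± 0.087). Of these, IDI1 and FADS2 also passed after quantile normalization, and each was lost without untransfected array b. The count of 20 became 3 and 4 without untransfected array b or c and 7 without miR-452 array a, and the PC3 count of 4 became 2 without untransfected array b. The difference between the lines passed for 0 of the 30 genes by limma, with 8 at an unadjusted p under 0.05, where 2.88% of all genes passed, and for 4 without DU145 miR-452 array c.

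Sterol and fatty acid genes were also set side by side as means over the genes on each array, as differences from the line's untransfected arrays. On the DU145 scrambled array the sterol mean was -0.10 and the fatty acid mean -0.36, a gap of 0.26. On the DU145 miR-224 arrays the sterol means were -0.48 and -0.40 and the fatty acid means -0.40 and -0.42, and with miR-452 they were -0.43 and -0.26 against -0.45 and -0.26. The gap between the classes lay between -0.07 and 0.03 on the mimic arrays, and the scrambled array had the widest gap of the 5 transfected DU145 arrays.

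In PC3 the sterol means were -0.02 and -0.16 on the scrambled arrays, -0.22 and -0.17 with miR-224 and -0.18 and -0.18 with miR-452. The fatty acid means were -0.08 and -0.28, -0.21 and -0.15, and -0.21 and -0.32. The sterol mean lay above the fatty acid mean by 0.06 and 0.12 on the scrambled arrays and by 0.03 and 0.14 with miR-452, and the gap was -0.01 on both miR-224 arrays. The classes hid opposite members: with miR-224 against scrambled in PC3, IDI1 and SC5D rose while HMGCS1, AACS, SQLE and EBP fell, and ACACA rose while FADS1 fell.

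**Figure D5:**
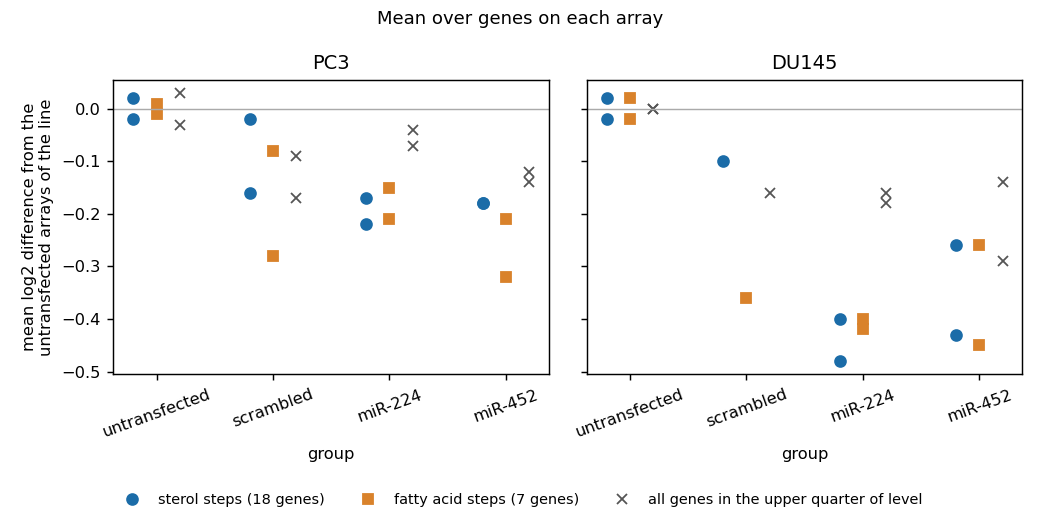
Mean log2 difference from the line's untransfected arrays over the 18 sterol steps, the 7 fatty acid genes and all genes at or above percentile 75 of level, on each array of PC3 (left) and DU145 (right). On the DU145 scrambled array the fatty acid mean, -0.36, lies below the sterol mean, -0.10, and on the DU145 miR-224 arrays both lie between -0.48 and -0.40.

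Further genes of these pathways came from 4 lists with 40 measured genes: SREBP processing and sterol sensing, other SREBP targets, other sterol and isoprenoid genes, and other genes of fatty acid synthesis and elongation. With miR-224 against scrambled 5 rose and 5 fell in PC3, where 12.1% and 4.65% of all genes did, and 1 rose and 1 fell in DU145, where 0.631% and 1.31% did. With miR-452 3 rose and 3 fell in PC3, where 2.89% and 2.33% did, and 0 rose and 1 fell in DU145, where 0.577% and 1.52% did. The 40 genes had median changes of 0.01, -0.04, 0.04 and -0.04 in these comparisons, against -0.11, -0.28, -0.09 and -0.17 for the 30 genes and -0.01, -0.01, 0.01 and -0.02 for all genes.

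ELOVL1, the elongase of saturated very long chains, fell with miR-224 against scrambled in both lines, by 0.52 ± 0.079 in PC3 (from a mean of 10.84 to 10.32, adjusted p = 0.0013) and 1.03 ± 0.11 in DU145 (from 10.41 to 9.38, adjusted p = 0.00349). It was also lower with miR-224 than in untransfected cells, by 0.57 ± 0.079 in PC3 and 0.81 ± 0.092 in DU145, and lower than with miR-452, where the changes were -0.49 ± 0.079 and -0.88 ± 0.092. HSD17B12, the reductase of the same elongation cycle, was lower with miR-224 than untransfected in both lines, with changes of -0.34 ± 0.093 and -1.01 ± 0.12, and did not pass against scrambled in either. LBR and ERG28, a sterol reductase and a scaffold of sterol enzymes, fell with miR-224 against scrambled in PC3, by 0.50 ± 0.094 and 0.38 ± 0.081. The PC3 call of HSD17B12 was lost without either miR-224 array or untransfected array b, and that of ERG28 without miR-224 array a.

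In the same comparison SCD5, another stearoyl-CoA desaturase (0.61 ± 0.088), HACD3, a dehydratase of elongation (0.60 ± 0.078), and DHDDS, a subunit of the dolichol-forming transferase (0.41 ± 0.10), rose. Against untransfected cells SCD5 rose by 0.43 ± 0.088, and the changes of HACD3 and DHDDS, 0.15 ± 0.078 and 0.15 ± 0.10, did not pass. The DHDDS rise was lost without miR-224 array b or scrambled array c, and the SCD5 rise against untransfected cells when any single array of those groups was left out. MBTPS2, the membrane protease that frees SREBPs, differed in direction between the mimics in PC3. It rose by 0.37 ± 0.083 with miR-224 (adjusted p = 0.00989), fell by 0.44 ± 0.083 with miR-452 (adjusted p = 0.00957), and was 0.81 ± 0.083 higher with miR-224 when the mimics were compared (adjusted p = 7.46e-05). Its rise was lost without miR-224 array b and its fall without miR-452 array c. ELOVL5, an elongase of polyunsaturated fatty acids, fell by 0.56 ± 0.077 with miR-452 against scrambled in PC3 (adjusted p = 0.00144), and in DU145 the change was -0.47 ± 0.10 (adjusted p = 0.0552). ME1, which supplies NADPH to fatty acid synthesis, rose with miR-224 against scrambled in both lines, by 0.26 ± 0.080 and 0.62 ± 0.11, with changes of 0.14 ± 0.080 and 0.07 ± 0.089 against untransfected cells that did not pass. In PC3 the ME1 call was lost after quantile normalization (adjusted p = 0.143) and when any single scrambled, miR-224 or miR-452 array was left out, and in DU145 without either miR-224 or either untransfected array.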

How the data were processed

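Total RNA was hybridised to 15 1-colour Affymetrix Human Gene ST arrays. The deposited values are log2 levels, 4.488 to 14.1842, which the authors made with RMA16 in GeneSpring GX, separately for each line, per the series' design text. An offset that RMA16 may add is not stated, and would understate changes of low genes. Of 28869 features, 19310 had 1 symbol in the platform annotation and were averaged to 18377 genes.

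Group means were fitted within each line with limma 3.58.1 in R 4.3.3, over 8 PC3 and 7 DU145 arrays, and on all 15 arrays for differences between lines, with two-sided tests and Benjamini-Hochberg adjustment. The script was tested on simulated data. Members that passed are named, at most 10 per comparison by p, and in other lists at most 3. IDI1, SCD and AACS were each also named beyond those 10 in a comparison. The members and lists were chosen with earlier results of these data known. Alternatives were a joint fit, a filter at percentile 20, the brightest feature per gene, quantile normalization, trend and robust moderation, a block on replicate letters and leaving out each array. Arrays limit precision by their number. RefSeq gave sequences.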

Additional observations from a re-analysis of the deposited data

Results flagged for a closer look

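In 4 instances the change of a gene of sterol synthesis or transport differed between PC3 and DU145, by the test of the difference between the lines in limma. With miR-224 against the scrambled mimic the change of MSMO1 was 0.94 higher in PC3 than in DU145 (adjusted p = 0.0228). With miR-224 against untransfected cells the change was 0.60 higher in PC3 for HMGCS1 (adjusted p = 0.0161), 1.01 higher for MSMO1 (adjusted p = 0.00487) and 0.79 higher for STARD4 (adjusted p = 0.00613). The MSMO1 values share the miR-224 arrays, so they are not independent of each other. No group has 4 or more arrays, and no array was tested for standing apart.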

How the results depend on the processing

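The 72 named changes of the 30 genes gave 1028 values under the alternatives run, of which 856 kept their direction and side of the threshold, 172 kept their direction and did not pass, and 0 reversed. Of the 72 changes, 21 passed under every alternative run and 45 were lost without some array. Lost were also 11 of 72 after quantile normalization, 1 of 68 in the fit of all 15 arrays, and 0 with the filter, the brightest feature or trend and robust moderation.

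For counts of genes that passed, the values over 1.5 times away from those reported were as follows, and the cause was not tested. After quantile normalization there were 3 for PC3 scrambled against untransfected, all higher, and in DU145 0 for scrambled, 10 for miR-224 and 6 for miR-452 against untransfected and 7 for miR-224 against miR-452. With all 15 arrays in 1 fit there were, in DU145, 5 for miR-224 and 5 for miR-452 against scrambled and 7 for miR-224 against miR-452. The filter gave 3 for PC3 scrambled against untransfected and 5 for the line difference of miR-224 against untransfected. Trend and robust moderation gave 2 for PC3 scrambled against untransfected, 6 for that line difference and, in DU145, 7 for miR-224 and 5 for miR-452 against scrambled and 4 for scrambled against untransfected.

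Deviations of same-lettered arrays correlated at -0.026, -0.147 and 0.273 in PC3 and at -0.31 in DU145. Only groups with the same letters could be compared, so whether the letters pair the arrays was not settled. With the letter as a replicate block 36 of the 72 changes were lost. That fit left 2 residual degrees of freedom in PC3 and 1 in DU145, against 4 and 3 without the block, so these losses do not decide whether the letters pair the arrays. The block gave 2 for PC3 scrambled against untransfected. In DU145 it gave 0 for miR-224, miR-452 and untransfected against scrambled, 4 and 2 for miR-224 and miR-452 against untransfected, 2 for miR-224 against miR-452, and 0 for the line differences of miR-224 against scrambled and against untransfected. Crossing the DU145 miR-452 letters, chosen after seeing the data, gave 1 and 0 for miR-224 and miR-452 against scrambled and 0 for the line difference of miR-224 against scrambled.

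Leaving out each array in turn gave these ranges of counts. In PC3 they were 5 to 11 for miR-224 and 1 to 3 for miR-452 against scrambled, 0 to 7 for scrambled, 4 to 11 for miR-224 and 2 to 5 for miR-452 against untransfected, and 6 to 12 for miR-224 against miR-452. In DU145 they were 1 to 7, 0 to 6, 0 to 5, 6 to 23, 3 to 24 and 1 to 6 for the same comparisons in the same order. The line differences gave 0 to 2 for miR-224 against scrambled, 2 to 6 and 0 to 4 for miR-224 and miR-452 against untransfected, and 0 for the others. A group left with 1 array was taken to vary like the others, and comparisons with scrambled DU145 cells without its 1 array were not run.

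With 2 arrays a group, and 1 in the DU145 scrambled group, genes that did not pass were not shown to be unaffected.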
